A study of Mus musculus with 6 samples.

Results

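The motors described here are 9 genes for proteins that carry cargo along microtubules: the kinesin heavy chains Kif5a, Kif5b, Kif5c, Kif1a, Kif1b and Kif3a, the kinesin light chains Klc1 and Klc2, and the dynein heavy chain Dync1h1. They were picked out by gene name and are 9 of the 17022 gene names in the authors' table and 80 of its 60744 isoform models. An isoform model is a transcript structure, either taken over from a reference annotation or assembled from the reads. Of the 80 models, 8 carry a reference identifier.

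RNA was sequenced from sensory neurons that had been cut by laser out of dorsal root ganglia of male C57Bl/6 mice, labelled both as adult and as 4 to 6 weeks old. In the crush group the sciatic nerve had been crushed for 10 seconds, and in the sham group it had been exposed for 10 seconds and not crushed. Ganglia of lumbar levels 3, 4 and 5 on the operated side were taken after 7 days, and each group had 3 polyadenylated-RNA libraries. Both groups were of the same strain and sex, and the labels name no transgene or drug.

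A sensory neuron makes nearly all of its proteins in the cell body in the ganglion, and its axon runs from there to the skin, muscle and spinal cord. Kinesins move vesicles, mitochondria and cytoskeletal proteins outwards along the microtubules of the axon, and cytoplasmic dynein moves signalling endosomes, autophagosomes and injury signals back to the cell body. A kinesin-1 motor consists of heavy chains, which hold the motor domain, and light chains, which bind cargo; kinesin-3 and kinesin-2 motors use other heavy chains and other cargo adaptors.

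Values are FPKM, which the authors scaled to the length of a transcript and to the mapped fragments of a library, summed over the isoform models of a gene. Summed FPKM over the tested genes was 363030 in sham 2 and 314531 to 336576 in the other libraries. FPKM keeps no read count, so the depth was unknown; in libraries whose value had the status OK, the deposited interval of a model with at least 10% of its gene's FPKM had a mean half-width of 22.1% to 28.3% of the value. Over all tested genes, 2.38% rose and 1.39% fell at an adjusted p under 0.05. Of the macrophage markers, 10 of 11 tested rose, and their summed FPKM was 71.6 to 84.4 in the sham libraries and 153 to 171 in the crush libraries. Of the sensory neuron markers, 0 of 17 rose and 2 fell, Nefh and Nefm (limma adjusted p = 0.0147 and 0.0486). Both calls were lost when any 1 of sham 1, sham 3, crush 1 or crush 2 was left out (limma adjusted p 0.0633 to 0.177). Among 13 glial and 11 endothelial and fibroblast markers 0 passed the test. Called or not, 14 neuron markers had a negative log2 change (median of the 17 -0.136). It was positive in 10 glial (median 0.186) and 9 endothelial and fibroblast markers (median 0.220). The part of other cells in the results below was not tested. The neuron markers were abundant, with Tubb3 at 1677 to 2447 FPKM and none of the 17 at 0 throughout, and all 11 macrophage markers were also detected. In RNA of pooled cells, fewer cells of a type and less RNA per cell cannot be told apart. The labels do not say that libraries came from separate animals, although the header of the table speaks of biological replicates, so p-values speak only of the variation among these libraries, part of which may be technical.

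All 9 motors were expressed far above the filter of 1 FPKM, and none changed past the test's threshold 7 days after the crush. The mean over the 6 libraries ran from 59.3 FPKM for Kif5b to 816 FPKM for Klc1, and between 90.7% and 99.8% of the 12289 tested genes lay below each of them. By limma on log2(FPKM + 1) with Benjamini-Hochberg adjustment over all tested genes, 0 of 9 motors passed an adjusted p of 0.05, where 3.78% of all genes did. Their adjusted p-values ran from 0.275 to 0.996. The log2 changes ran from -0.24 for Klc2 to 0.11 for Kif1a, with a median of -0.01 beside -0.02 over all tested genes. The 95% intervals of all 9 stayed between -0.48 and 0.49, so a change of more than 0.5 on the log2 scale lay outside each interval. At an unadjusted p under 0.05 there was 1 motor, Klc2, where 17.6% of all genes passed. In 3 of the 9, Kif5a, Kif3a and Klc2, the values of the groups did not overlap, and all 3 were lower after the crush. Groups did not overlap in 26.3% of all tested genes, and in 14.1% with lower values after the crush.

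**Figure D1:**
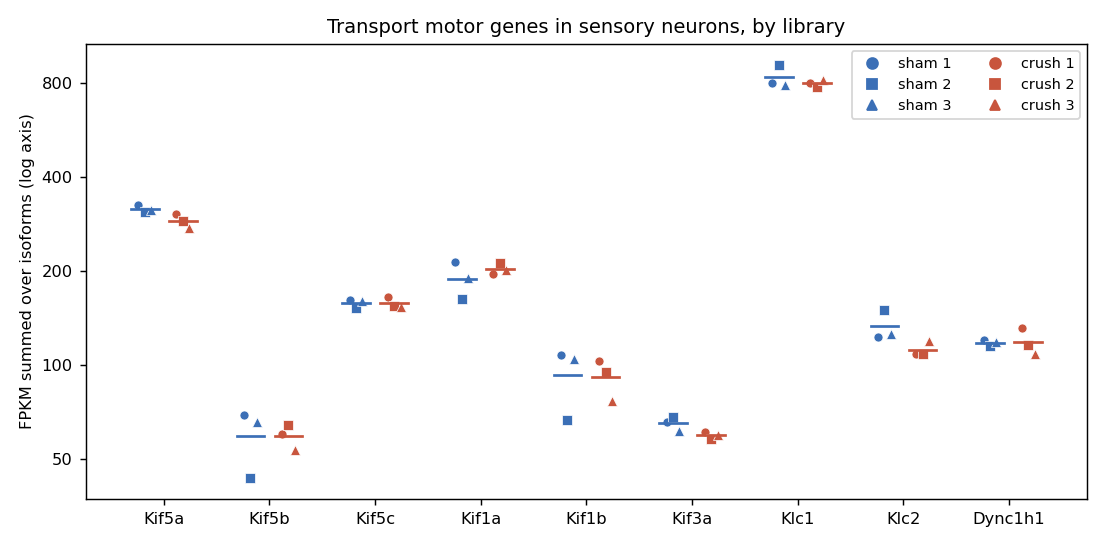
FPKM summed over isoform models (vertical log axis) of the 9 motor genes in each library, sham in blue and crush in red, with the symbol giving the library number and the bar the group mean. Klc1 is the highest in every library, at 776 to 914 FPKM, and the group means of each gene lie close together.

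The kinesin-1 heavy chain Kif5a, the form found mainly in neurons (chromosome 10, 126662179 to 126726010 in mm9, minus strand), was the most abundant of the heavy chains. It measured 324, 308 and 313 FPKM in the sham libraries and 304, 290 and 273 FPKM in the crush libraries. Every crush library was below every sham library, by a small margin. The log2 change was -0.12 (SE 0.0780, n = 3 per group, limma adjusted p = 0.479), and its interval reached from a fold of 0.807 to one of 1.04. On the opposite strand the exons of 4 Kif5a models overlap Dctn2, a dynactin subunit at 216 FPKM in sham and 205 in crush, over 7.21% of the exon bases of Kif5a. Strand was not stated for these libraries, so reads from that stretch cannot be assigned to either gene.

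Kif5b, the kinesin-1 heavy chain made in most cell types (chromosome 18), measured 69.3, 43.4 and 65.5 FPKM in the sham libraries and 60.2, 64.3 and 53.2 FPKM in the crush libraries. Sham 2 was the lowest of all 6 libraries, and the groups overlapped. The log2 change was 0.02 (SE 0.18, adjusted p = 0.969). Kif5c, the other neuronal form (chromosome 2, 49474647 to 49630300 in mm9, plus strand), measured 162, 152 and 160.2 FPKM in sham and 165, 154 and 153 FPKM in crush. Its group means differed by less than the spread within either group, and the log2 change was -0.01 (SE 0.0706, adjusted p = 0.973).

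FPKM is per length, but the shares of the 3 kinesin-1 heavy chains also depended on which models were summed. Over all models Kif5a made up 59.2% ± 1.68 (SD, n = 3) of their summed FPKM in sham and 57.2% ± 0.246 in crush. The shares were 58.4%, 61.1% and 58.1% in the sham libraries and 57.5%, 57.0% and 57.0% in the crush libraries. The groups did not overlap, and the difference of -2.03 percentage points had an exact permutation p of 0.1, the smallest that 3 against 3 can give. Without sham 2 the difference was -1.07 points, and without both sham 2 and crush 3, a setting chosen after seeing the data, -1.001. Kif5c held 29.7% ± 0.562 in sham and 31.1% ± 0.768 in crush (exact permutation p = 0.1), and Kif5b 11.1% ± 2.15 and 11.7% ± 0.833 (exact permutation p = 0.8). Over long models alone, those with more than 50% of the exons of the gene's fullest model, the share of Kif5a was 53.3% in sham and 51.9% in crush, and the groups overlapped (exact permutation p = 0.2). Over the same long models Kif5b held 28.3% and 28.5% (exact permutation p = 1) and Kif5c 18.4% and 19.6% (exact permutation p = 0.4), so Kif5b ranked above Kif5c there and below it over all models. Kif5b has no short model, whereas short models held 59.3% to 74.1% of Kif5a and 70.9% to 83.4% of Kif5c.

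Of the light chains, Klc1 was the most abundant motor gene measured (chromosome 12, 112972547 to 113033051 in mm9, plus strand). It stood at 801, 914 and 788 FPKM in sham and 799.9, 776 and 817 FPKM in crush. Sham 2 was the highest, the groups overlapped, and the log2 change was -0.06 (SE 0.0983, adjusted p = 0.811). Klc2 (chromosome 19, 5099261 to 5119842 in mm9, minus strand) measured 123, 150.3 and 125 FPKM in sham and 109, 108 and 119 FPKM in crush. Every crush library was below every sham library, with crush 3 nearest to them. The log2 change of Klc2 was -0.24 (SE 0.0988, 95% interval -0.475 to -0.00473, limma unadjusted p = 0.0466, adjusted p = 0.275). Without sham 2 it was -0.15 (adjusted p = 0.200). Without sham 2 and crush 3 it was -0.19 with a limma adjusted p of 0.0283, where 13.1% of all genes passed. Of the 5 Klc2 models, 3 run through into the neighbouring gene Rab1b on the same strand, and 24.6% of the exon bases of Klc2 are shared with it; Rab1b stood at 69.4 FPKM in sham and 69.2 in crush.

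Klc1 made up 86.3% ± 0.423 (SD, n = 3) of the summed FPKM of the light chains in sham and 87.7% ± 0.383 in crush. The shares were 86.7%, 85.9% and 86.3% in sham and 88.0%, 87.8% and 87.3% in crush, with no overlap (exact permutation p = 0.1, the smallest possible). Long models alone gave 81.9% and 82.9%, again without overlap. All Klc1 values have a status other than OK in the 3 crush libraries and the status OK in the 3 sham libraries. In these shares status and surgery therefore cannot be told apart. The genes whose values followed those of Klc2 most closely over the 6 libraries, among 5641 genes of at least 10 FPKM, were Abhd8, Gnl1 and Hsd17b10, each with a Pearson r of 0.998 on log2(FPKM + 1). These points share their libraries, and sham 2 is the highest for Klc2.

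The kinesin-3 motors carry synaptic vesicle precursors, dense-core vesicles and other organelles. Kif1a (chromosome 1, 94911905 to 94998607 in mm9, minus strand) measured 213, 163 and 190.0 FPKM in sham and 195, 212 and 202 FPKM in crush. The lowest and the highest value were both in sham, and the log2 change was 0.11 (SE 0.109, adjusted p = 0.672), or 0.0116 without sham 2. Kif1b (chromosome 4, 148550210 to 148682478 in mm9, minus strand) measured 107, 66.5 and 105 FPKM in sham and 103, 95.1 and 76.6 FPKM in crush. Sham 2 and crush 3 were the lowest of their groups, and the log2 change was 0.00 (SE 0.204, adjusted p = 0.996).

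Kif3a, a subunit of kinesin-2, the motor of cilia and of some axonal cargoes (chromosome 11, 53380714 to 53417753 in mm9, plus strand), measured 65.5, 68.3 and 61.6 FPKM in sham and 60.8, 58.0 and 59.5 FPKM in crush. The crush libraries lay just below the sham libraries, and the log2 change was -0.13 (SE 0.0666, adjusted p = 0.390). Dync1h1, the heavy chain that holds the motor domain of cytoplasmic dynein (chromosome 12, 111838725 to 111905027 in mm9, plus strand), measured 119.8, 115 and 118 FPKM in sham and 131, 116 and 109 FPKM in crush. Both the highest and the lowest library were in the crush group, and the log2 change was 0.01 (SE 0.0857, adjusted p = 0.976).

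In order of mean level summed over all models the motors were Klc1, Kif5a, Kif1a, Kif5c, Klc2, Dync1h1, Kif1b, Kif3a and Kif5b. The ranges over the 6 libraries overlapped between Kif1a and Kif5c, between Klc2 and Dync1h1, between Kif1b and Kif3a and between Kif3a and Kif5b, and did not overlap between the other neighbours in this order. Kif1a was nevertheless above Kif5c in all 6 libraries, whereas Kif3a was above Kif5b in 3 of them. Over long models only the order was another after Klc1: Klc1 (571 FPKM), Klc2 (122), Kif5a (111), Kif1a (72.7), Kif5b (59.3), Dync1h1 (46.6), Kif1b (44.4), Kif3a (41.6) and Kif5c (40.2).

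**Figure D2:**
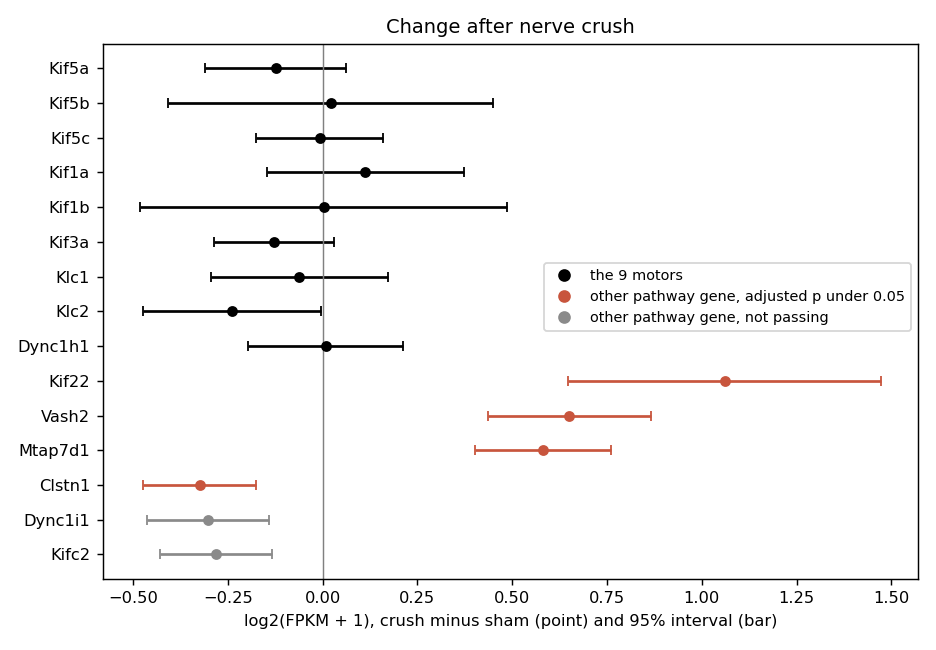
Change of log2(FPKM + 1) from sham to crush (horizontal axis, point) with its 95% interval (bar) for the 9 motors in black, for other genes of the transport pathway that passed an adjusted p of 0.05 in red, and for 2 that came near it in grey. All 9 black intervals lie between -0.48 and 0.49, whereas Kif22, at 1.06, lies to the right of all of them.

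The other genes of the transport pathway, in 7 lists with 110 tested genes, changed about as often as genes in general: 3 rose and 1 fell. That is 3.64% of them beside 3.78% of all genes, of which 2.38% rose and 1.39% fell, and their median log2 change was 0.00. None of 16 further transport kinesins and light chains, 11 further dynein subunits, 12 dynactin subunits and 14 dynein regulators and adaptors passed by limma, where 3.78% of all genes did. Of 27 kinesin cargo adaptors 1 fell, of 5 microtubule-remodelling and mitotic kinesins 1 rose, and of 25 microtubule-associated proteins and tubulin-modifying enzymes 2 rose. A further 9 listed genes were not analysed here, and others had a mean under the filter of 1 FPKM and were not tested. Of the microtubule-remodelling and mitotic kinesins, 16 were in the authors' table and 5 were tested. Without sham 2 and crush 3, where 13.1% of all genes passed, 2 of the 16 transport kinesins and light chains rose and 3 fell, and 1 of the 11 dynein subunits fell. In that setting 0 dynactin subunits and 0 dynein regulators passed, 1 cargo adaptor rose and 2 fell, 1 remodelling or mitotic kinesin rose, and 4 microtubule-associated or tubulin-modifying genes rose and 4 fell.

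Mtap7d1, a member of the family of microtubule-associated proteins that recruit kinesin-1 to microtubules, measured 122, 124 and 120.0 FPKM in sham and 187, 169.6 and 193 FPKM in crush. All crush libraries were above all sham libraries, and the gene rose by 0.58 on the log2 scale (SE 0.0758, limma adjusted p = 0.0141). The call was lost when any 1 of sham 1, sham 3, crush 1 or crush 3 was left out (adjusted p 0.0633 to 0.0947), while the change stayed at 0.54 or more. It was also lost over long models only (adjusted p = 0.0862), a setting chosen after seeing the data.

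Vash2, a tubulin carboxypeptidase that removes the terminal tyrosine of alpha-tubulin, measured 2.24, 2.08 and 1.77 FPKM in sham and 3.43, 3.90 and 3.94 FPKM in crush. It was low in every library, and all crush values were above all sham values. It rose by 0.65 (SE 0.0906, limma adjusted p = 0.0165), and the call was lost without any 1 of sham 3, crush 1, crush 2 or crush 3 (adjusted p 0.0703 to 0.0810) and with reference isoforms only (0.0662).

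Kif22, a kinesin of the mitotic spindle, measured 2.58, 4.23 and 2.75 FPKM in sham and 7.00, 6.80 and 9.22 FPKM in crush. It rose by 1.06 (SE 0.174, limma adjusted p = 0.0268), but 55.1% of its exon bases lie in exons of Mvp on the same strand, which stood at 18.4 FPKM in sham and 26.1 in crush. Leaving out any 1 library other than sham 2 ended the call (adjusted p 0.0821 to 0.109), and so did a length-weighted sum (log2 0.79, adjusted p = 0.138), which was chosen after seeing the data. Over long models only, the mean of Kif22 lay under the filter of 1 FPKM, so the gene was not tested there.

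Clstn1, which encodes the kinesin-1 cargo adaptor calsyntenin-1, measured 138, 144 and 139 FPKM in sham and 112, 111 and 113 FPKM in crush. It fell by 0.32 on the log2 scale (SE 0.0623, limma adjusted p = 0.0413), the only pathway gene called lower. Leaving out any 1 library other than sham 2 ended the call (adjusted p 0.126 to 0.201), and 48.9% of its exon bases are shared with Pik3cd on the opposite strand, at 13.0 FPKM in both groups. The call was also lost with quantile normalization (adjusted p = 0.112), with no filter (0.0511) and over long models only (0.0556). With reference isoforms alone its log2 change was 0.18 (adjusted p = 0.862).

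The members of smallest adjusted p in the lists without a call came near the threshold in 2 cases. Dync1i1, the neuronal intermediate chain of dynein, measured 62.3, 57.2 and 61.1 FPKM in sham and 50.6, 48.8 and 46.5 FPKM in crush (log2 -0.30, limma adjusted p = 0.0666). Kifc2, a kinesin of neurons, measured 18.8, 20.03 and 18.5 FPKM in sham and 15.7, 15.2 and 15.7 FPKM in crush (log2 -0.28, limma adjusted p = 0.0622). In both genes the groups did not overlap, and both passed without sham 2 and crush 3 (limma adjusted p = 0.0100 and 0.0228). Among dynactin subunits the smallest adjusted p was that of Capza1 (32.1 FPKM in sham, 36.0 in crush, adjusted p = 0.258), and among dynein regulators that of Rilp (log2 -0.24, adjusted p = 0.213). The most abundant genes of these lists were Dynll2, a dynein light chain (317 and 285 FPKM, adjusted p = 0.328), Dctn1, which encodes the largest dynactin subunit (227 and 212 FPKM, adjusted p = 0.638), Pafah1b1, the dynein regulator Lis1 (216 and 208 FPKM, adjusted p = 0.897), and the kinesin Kif21a (211 and 227 FPKM, adjusted p = 0.681). The adaptor Arl8a, which links lysosomes to kinesins, stood at 202 and 209.8 FPKM (adjusted p = 0.819), Kif2a, a microtubule depolymerase, at 29.6 and 30.8 FPKM (adjusted p = 0.807), and Mtap1b, a large neuronal microtubule-associated protein, at 247 and 237 FPKM (adjusted p = 0.995). Mtap1b stood at 142 FPKM in sham 2 beside 294 and 304 in the other sham libraries. Its log2 change ran from -0.35 to 0.20 with 1 library left out and was -0.21 without sham 2 and crush 3 (limma adjusted p = 0.0393).

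Within genes, the FPKM of most motors was split over several models. Of the 80 models, 59 had a mean of at least 1 FPKM, 29 held at least 10% of their gene's FPKM on average, and 4, all of Kif1a, were listed at 0 in every library. By limma 0 of the 59 tested models passed an adjusted p of 0.05 (lowest adjusted p 0.229), where 0.0613% of all isoforms did; 4 had an unadjusted p under 0.05, beside 9.12% of all isoforms. The groups did not overlap in 9 of the 59, beside 17.0% of all isoforms.

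Models that cover only the last exons of the gene held much of the motors' FPKM. A model was counted as short when it had at most 50% of the exons of its gene's fullest model; 7 motors had such models, and every short model ended within 1000 bases of the end of a long model of its gene. In Kif5a the leading model Kif5a_j4, of 4 exons and 3118 bases, held 39.9% ± 1.13 (SD, n = 3) of the gene's FPKM in sham and 41.4% ± 1.99 in crush. Kif5a_j8, of 32 exons, held 22.7% ± 3.09 and 20.2% ± 2.41. In Kif5c the model Kif5c_j7, of 2 exons and 3692 bases, held 47.1% ± 2.49 in sham and 54.7% ± 4.11 in crush. It stood at 75.6, 75.6 and 71.7 FPKM in sham and 86.8, 91.5 and 79.5 FPKM in crush, without overlap (log2 0.20, limma adjusted p = 0.549). In Kif1a the leading model was Kif1a_j1, of 12 exons, with 52.8% ± 10.4 and 51.8% ± 5.55, in Kif1b it was Kif1b_j4, of 11 exons, with 36.3% ± 13.7 and 31.1% ± 3.16, and in Dync1h1 it was Dync1h1_j8, of 37 exons, with 36.3% ± 3.20 and 38.0% ± 3.64. Models of most of the exons led in Kif5b, Klc2 and Kif3a: Kif5b_j4, of 26 exons, held 64.8% ± 1.02 and 64.7% ± 1.39 of Kif5b, Klc2_j4, of 15 exons, held 74.2% ± 2.26 and 73.4% ± 0.876 of Klc2, and the reference model of Kif3a, of 17 exons, held 59.8% ± 2.03 and 54.1% ± 1.48 of Kif3a. That Kif3a model measured 37.6, 41.6 and 37.6 FPKM in sham and 33.3, 32.0 and 31.2 FPKM in crush, without overlap (log2 -0.27, limma adjusted p = 0.379).

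In 5 motors the share of the short models varied widely within the groups. In Dync1h1 it was 54.7%, 80.0% and 51.8% in the sham libraries and 55.5%, 55.0% and 67.9% in the crush libraries. In Kif5a it was 59.3%, 74.1% and 59.9% in sham and 60.6%, 59.8% and 67.3% in crush, and in Kif1a 58.0%, 74.5% and 57.7% in sham and 59.2%, 60.9% and 68.9% in crush. Kif5c ranged from 70.9% to 83.4% and Kif1b from 46.8% to 66.3%. In these 5 genes sham 2 had the highest share and crush 3 the next highest. A wider set held 1739 tested genes with a mean of at least 10 FPKM and more than a trace of it in short models. Over this set the median share was 36.8%, 40.1% and 36.4% in sham and 38.4%, 38.0% and 39.0% in crush, with the same 2 libraries on top. Kif3a, where sham 2 had the lowest share at 26.3%, and Klc1 did not follow this order. Without both libraries, a setting chosen after seeing the data, the log2 change of Kif5b was -0.11 and that of Kif1b -0.10, in place of 0.02 and 0.00.

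**Figure D3:**
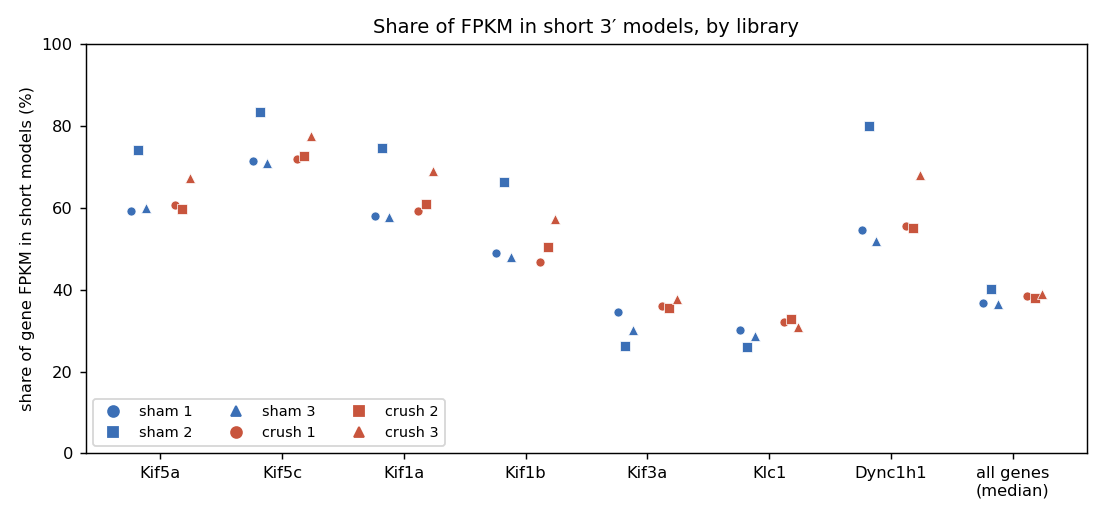
Share of a gene's FPKM in models of at most 50% of the exons of its fullest model (vertical axis, percent) for each library, for the 7 motors with such models. The last position is the median over 1739 genes of at least 10 FPKM with more than a trace of it in such models. Sham 2 (blue square) and crush 3 (red triangle) stand above the other 4 libraries in Kif5a, Kif5c, Kif1a, Kif1b and Dync1h1.

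Whether the models of a gene changed by different amounts was tested with limma's diffSplice, which compares each model's change with that of the gene's other models. Of the 9 motors 1 passed, Klc1 (F = 6.39, limma adjusted p = 0.00928), where 0.445% of 6746 genes did; the others had adjusted p-values of 1. The model behind it was Klc1_j10, of 15 exons and 2254 bases and 1.60% of the gene's FPKM on average. It measured 15.0, 48.9 and 14.2 FPKM in sham, 4.43 FPKM in crush 2, and was listed at 0 in crush 1 and crush 3. Its log2 change relative to the other Klc1 models was -3.57 (limma diffSplice adjusted p = 4.3e-05), while its own limma test gave an adjusted p of 0.229. The authors' table gives every Klc1 value the status FAIL in the 3 crush libraries and OK in the 3 sham libraries, so this status and the surgery cannot be told apart. The pattern of FAIL in exactly the crush libraries was found in 2 tested genes, and of FAIL in exactly the sham libraries in 5. The call was lost without crush 1 (adjusted p = 0.448), without crush 3 (0.418), without both sham 2 and crush 3 (0.369) and with a pseudocount of 0.1 (0.0756).

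The Klc1 models that held at least 10% of the gene were a 3-exon model of 557 bases named Klc1_j1 (28.2% ± 2.11 in sham, 31.9% ± 0.941 in crush), Klc1_j11 of 14 exons (20.2% ± 0.393 and 19.2% ± 0.504), the reference model of 14 exons (17.6% ± 3.35 and 14.9% ± 2.07) and Klc1_j12 of 14 exons (11.7% ± 3.92 and 13.7% ± 1.44). The 557-base model measured 241, 237 and 226 FPKM in sham and 256, 255 and 253 FPKM in crush, without overlap (log2 0.12, limma adjusted p = 0.711). Klc1_j5, with 5.11% of the gene, measured 38.3, 36.1 and 36.6 FPKM in sham and 41.5, 45.4 and 50.8 FPKM in crush (log2 0.30, limma adjusted p = 0.425).

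**Figure D4:**
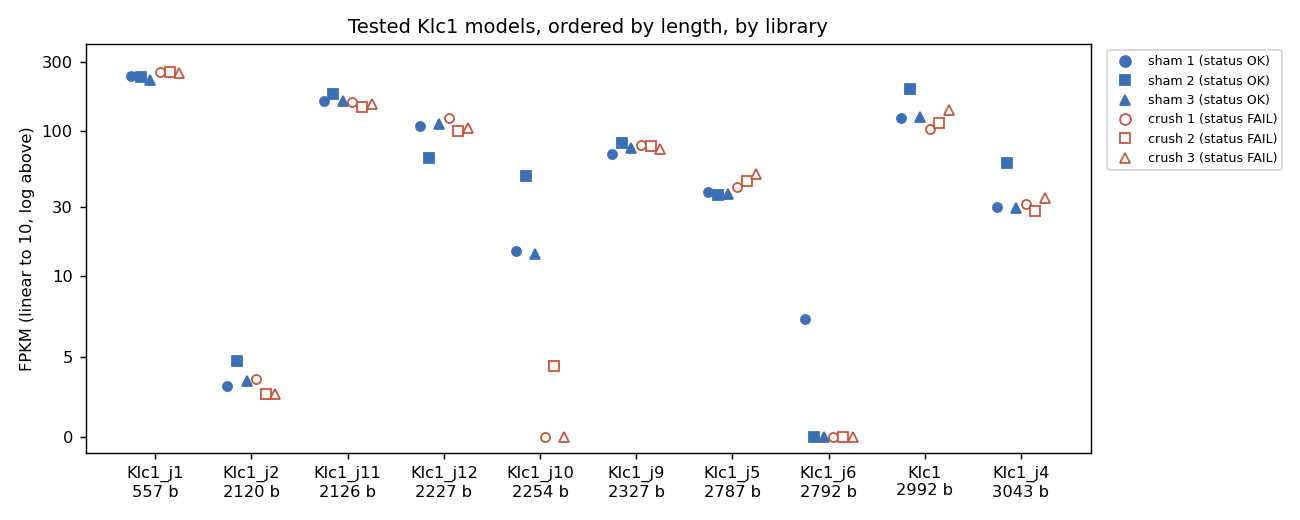
FPKM of the 10 tested Klc1 models in each library (vertical axis, linear to 10 and logarithmic above), ordered by model length; filled blue symbols are sham libraries, with the status OK, and open red symbols crush libraries, with the status FAIL. Klc1_j10 is at 14.2 to 48.9 in sham and at 0, 4.43 and 0 in crush. Of the models with at least 10% of the gene, the groups overlap in the reference model and Klc1_j12. They do not overlap in the 557-base Klc1_j1, higher in crush, and in Klc1_j11, lower in crush.

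A status other than OK also marked Kif5a in sham 3 and crush 1, Kif5b in crush 3, Kif5c in crush 1 and Kif1b in sham 3. Kif1a, Kif3a, Klc2 and Dync1h1 were OK in all 6 libraries. In the authors' deposited table of group comparisons 66 of the 80 motor models have the test status FAIL, 1 was not tested, and 13 were tested, all of Dync1h1 and Klc2. It calls 3 of them significant: Dync1h1_j5 (log2 fold -0.33, q = 0.00569), Dync1h1_j11 (log2 fold 1.45, listed with q = 0) and Klc2_j5 (log2 fold 0.40, q = 0.0322). For all 3 models the authors' group values in that deposited table lie above the FPKM of every single library. For Dync1h1_j11 they are 13.0 and 35.6 FPKM, where the libraries hold 2.10 to 4.34 FPKM. No SD or n belongs to these group values.

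Cassette exons, which some models of a gene include and others splice past, were present in Kif1a, Kif1b, Kif3a and Klc1. Inclusion was taken as the FPKM of the including models over that of the including and skipping models. The 9 motors held 16 such exons, of which 10, all in Kif1a, Kif1b and Klc1, had a mean inclusion of 10% to 90%, and all 10 have a length that is a multiple of 3. Of 6 exons of at most 60 bases matched to GENCODE M21 transcripts (GRCm38) by the lengths of exon and flanking introns, the 5 that are coding throughout are shown because the results below turn on their inclusion; capitals mark the exon and lower case the 12 bases spliced to it on each side. They lie on the minus strand in Kif1a and Kif1b, at chr1:93026832-93026855 (24 bases), chr1:93034546-93034572 (27 bases) and chr1:93065552-93065578 (27 bases) in Kif1a, and at chr4:149265345-149265362 (18 bases) and chr4:149261160-149261201 (42 bases) in Kif1b. Written 5′ to 3′ they read as follows.
Kif1a 24-base: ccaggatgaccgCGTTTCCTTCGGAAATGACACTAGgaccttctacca
Kif1a 27-base, downstream: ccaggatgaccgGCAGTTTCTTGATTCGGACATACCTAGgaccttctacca
Kif1a 27-base, upstream: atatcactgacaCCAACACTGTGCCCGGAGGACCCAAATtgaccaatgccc
Kif1b 18-base: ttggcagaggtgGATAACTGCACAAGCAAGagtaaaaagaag
Kif1b 42-base: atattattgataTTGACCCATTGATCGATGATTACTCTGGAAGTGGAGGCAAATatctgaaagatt
In the matched transcripts the 24-base exon and the downstream 27-base exon of Kif1a are spliced between the same flanking bases. The authors' model Kif1a_j8 includes both exons.

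Inclusion of these exons differed between the groups by at most 4.55 percentage points. The groups did not overlap in 3 of the 10 exons. Over all genes this held for 10.4% of 2212 such exons, and for 9.92% of 1844 in genes with every status OK. Exons of a gene share models, so the 10 are not independent of each other. The Klc1 exon among the 3 rests on crush values with the status FAIL. The downstream 27-base exon of Kif1a was included at 37.4%, 36.9% and 39.1% in sham and 34.4%, 32.3% and 35.6% in crush (37.8% ± 1.14 and 34.1% ± 1.66, SD, n = 3). The upstream 27-base exon of Kif1a was included at 56.6%, 55.4% and 59.9% in sham and 53.7%, 52.0% and 54.7% in crush (57.3% ± 2.32 and 53.4% ± 1.36). In both exons every crush library was below every sham library, and Kif1a had the status OK throughout. The model Kif1a_j2 includes both exons, and both ranked the libraries in the same order, so they are not separate results. With 3 libraries against 3 no exact test could give a p below 0.1.

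The 24-base exon of Kif1a was included at 28.8% ± 4.48 in sham and 28.9% ± 2.66 in crush, with sham 2 the highest. In Kif1b the 18-base and 42-base exons occur in the same models and so have the same inclusion, 53.4%, 37.1% and 54.0% in sham and 53.8%, 53.5% and 44.6% in crush. Sham 2 and crush 3 were the lowest there, and the groups overlapped. The 51-base exon of Klc1 near the end of the gene was included at 48.3%, 45.7% and 46.9% in sham and 51.2%, 52.6% and 50.6% in crush, without overlap, and the status FAIL of all Klc1 values in crush applies to it. The matched transcript codes through the first 30 bases of that exon, which is not shown, and a 24-base exon of Klc1, included at 17.0% ± 2.26 in sham and 14.8% ± 1.44 in crush, had no matching transcript.

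**Figure D5:**
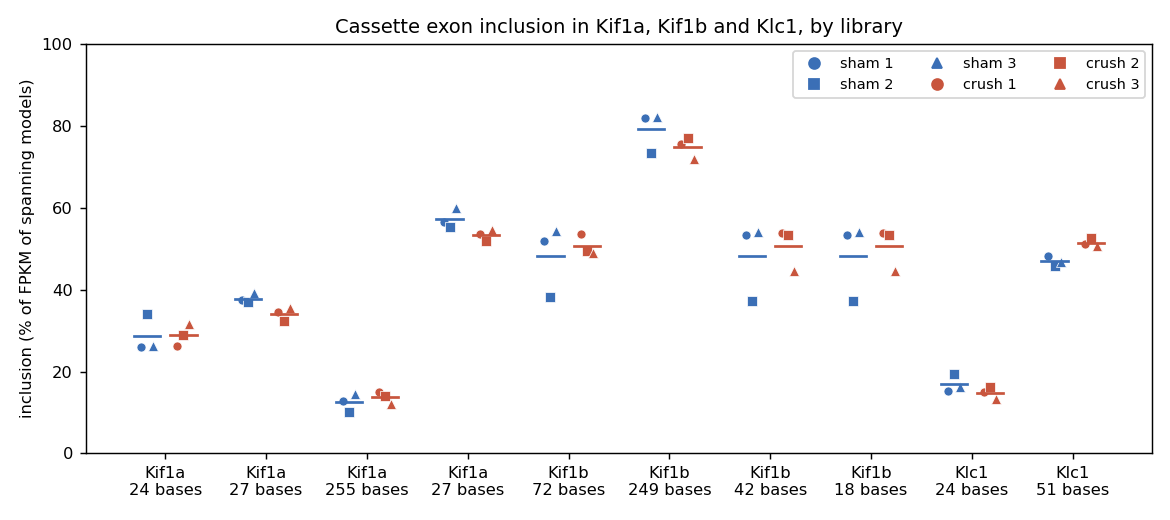
Inclusion (vertical axis, percent of the FPKM of including and skipping models) of the 10 cassette exons with a mean inclusion of 10% to 90% in each library, with bars at the group means and exon lengths under the gene names. The groups separate in both 27-base exons of Kif1a, lower in crush, and in the 51-base exon of Klc1, higher in crush, and overlap in the other 7.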

How the data were processed

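Poly-A RNA of 3 sham and 3 crush samples was sequenced, barcoded and mixed on 3 lanes, per the labels' protocols. FPKM per isoform and library, with an interval and a status, was read from the authors' deposited table. The same deposited table holds the authors' group comparison: a p-value, a q-value and a log2 fold per isoform. TopHat 1.3.2, Cufflinks 1.1.0, Cuffdiff 1.2.1 and mm9 are named in the submitters' processing notes. Exon coordinates came from the authors' deposited exon file.

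Names were stripped of their isoform suffix and FPKM was summed per name. Features whose mean over the samples reached 1 FPKM were tested as log2(FPKM + 1), which understates the change of low genes, with limma 3.58.1 in R 4.3.3 (trend, 2-sided, Benjamini-Hochberg over all features tested, threshold 0.05). Differences between isoforms used diffSplice; shares used a 2-sided exact permutation test. Of the listed genes, 13 were found under an older symbol. The test was tested on simulated data: in 5 sets of 12289 genes, 200 of 200 changed genes were recovered, with 4 to 16 false calls, and diffSplice recovered 200 of 200 changed genes among 6746, with 11 false calls. The planted changes were larger than the log2 change of any motor gene, and all simulated features had the same spread, unlike the real ones. Recovery of changes as small as those of the motors was not tested. The replicate numbers are not said to pair the samples, so they were not taken as pairs. Deviations of the same numbers had correlations of 0.37, -0.31 and -0.49, and those of sham 2 and crush 3 one of 0.59. With so few libraries these values cannot decide whether samples were paired. Tables and figures used Python 3.11.15, pandas 2.3.3, numpy 2.4.6, scipy 1.17.1 and matplotlib 3.10.9.

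The motors and the gene lists were chosen with earlier results of these data known. Named are all 9 motors, isoforms of at least 10% of a gene, from each list up to 2 risers and 2 fallers of smallest adjusted p among called genes (with none called, the gene of smallest adjusted p) and its most abundant gene, and the 3 genes most like the motor of smallest adjusted p. Klc1_j10, Klc1_j5 and the models in the authors' comparison were named after their values were seen.

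Alternatives were another pseudocount, no filter, upper-quartile and quantile scaling, sample weights, a replicate block, each library left out and reference isoforms only; 4 more were chosen after seeing the data.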

Additional observations from a re-analysis of the deposited data

How the results depend on the processing

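The motors gave 150 log2 changes under up to 17 alternatives each: 127 kept direction and stayed short of the threshold, 1 passed it (Klc2 without both sham 2 and crush 3) and 22 turned sign; the cause was not tested. Kif1a, Kif3a and Klc2 kept their sign under every alternative run, but Kif1a came to 0.000288 with sample weights, and with 1 library left out ran from 0.0116 to 0.20, Kif3a from -0.17 to -0.09 and Klc2 from -0.29 to -0.15. With reference isoforms only, the log2 change was 0.59 for Kif5a, 0.24 for Kif5c and 0.18 for Clstn1 (limma adjusted p = 0.752, 0.879 and 0.862). The difference in the Kif5a share of the heavy chains was then 5.05 percentage points. The reference model held 4.57% of the FPKM of Kif5a and 23.5% of that of Kif5c on average. With sample weights the log2 change was -0.12 for Kif5b and -0.10 for Kif1b, and without both sham 2 and crush 3 -0.11 and -0.10. Kif5c was at 0.0118 with upper-quartile scaling, 0.0296 with quantile normalization, 0.0217 with a length-weighted sum and 0.10 over long models only. Leaving out 1 library in turn gave -0.19 to 0.15 for Kif5b, -0.0430 to 0.0133 for Kif5c, -0.22 to 0.12 for Kif1b, -0.10 to 0.00595 for Klc1 and -0.0652 to 0.0687 for Dync1h1.

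The number of genes called was 464 as reported, 1429 with sample weights, 67 with reference isoforms only, 1610 without both sham 2 and crush 3, 293 over long models only, and 53 (without crush 1) to 1174 (without sham 2) when 1 library was left out. Isoform calls numbered 15 as reported, 7 with no filter, 30 with upper-quartile scaling, 42 with quantile normalization, 1355 with sample weights (Kif5c_j7 among them, log2 0.27, limma adjusted p = 0.0442), 5 without both libraries, 27 with only values of status OK, and 0 to 45 with 1 library left out. Genes with isoform differences numbered 30 as reported, 103 with no filter, 639 with sample weights, 92 without both libraries, and 9 to 70 with 1 library left out. With the replicate block, for numbers not said to pair the samples, 50 genes, 0 isoforms and 5 genes with isoform differences were called. Klc1 was among these 5 genes (limma diffSplice adjusted p = 0.0105). At the gene level 0 motors passed, and Kif22, Vash2, Mtap7d1 and Clstn1 no longer passed (limma adjusted p 0.102 to 0.219). FPKM keeps no depth, so counting error is not known beyond the deposited intervals.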
